A study of Bos taurus with 12 samples.

Results

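The genes of glycogen synthesis and breakdown were examined in the liver of 4-d-old calves. The 9 genes GYS2, GBE1, UGP2, PGM1, PYGL, PHKA2, GAA, PPP1R3B and PPP1R3C were chosen by name from what their proteins do, and they are 9 of the 30336 gene IDs for which reads were counted. All 9 had reads in every library and passed the filter on low counts. RNA of liver puncture biopsies came from 12 Holstein heifer calves, 6 born to cows on the control diet (CON) and 6 to cows that had ethyl-cellulose rumen-protected methionine added to that diet (MET) over the last 28 d before calving. The calves of both groups were managed alike after birth and were given colostrum of their own dams, so the colostrum and the diet before calving cannot be told apart. Polyadenylated RNA was sequenced on 1 lane, and the libraries of each diet carried a first index of their own, so index and diet cannot be told apart.

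Glycogen is the branched store of glucose in liver and muscle. To build it, phosphoglucomutase turns glucose 6-phosphate into glucose 1-phosphate, a pyrophosphorylase charges this to UDP-glucose, glycogen synthase lengthens the chains and the branching enzyme adds side chains. To release it, phosphorylase, switched on by phosphorylase kinase, cuts glucose 1-phosphate from the chain ends, while an acid glucosidase digests the glycogen that reaches lysosomes. Targeting subunits hold protein phosphatase 1 on the glycogen particle, where it switches the synthase on and phosphorylase off. The newborn liver draws on this store in the first hours after birth, before gluconeogenesis is established.

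The libraries held between 8277789 and 10397604 counted reads each. Set against each other, CON replicates 1 and 4 gave a chi-square of 1.31 per gene and MET replicates 1 and 3 one of 1.23, close to what counting noise alone gives, whereas the other 64 of 66 library pairs gave 23.3 to 122. Although the labels name each library as a sample of its own, each of these 2 pairs was therefore counted as 1 sample, which leaves 5 samples per diet, and every call of a glycogen or pathway gene over the 12 libraries is given beside the same test over 10 samples. Among markers of liver cells, all 12 hepatocyte genes had reads in every sample and together made up 131229 to 184210 TPM, the unit of reads per length scaled to the same total in each sample. Of 15 skeletal muscle markers, ACTA1, MYH2 and CKM had no read in any sample, while 4 had reads in every sample. The highest of these was TCAP, with 8.03 to 11.3 TPM in CON and 9.51 to 16.8 TPM in MET.

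Of the 9 glycogen genes, GYS2 and PYGL passed the test over the 12 libraries and both were lower in MET calves. GYS2 encodes the glycogen synthase of liver, which lengthens the chain, and PYGL the glycogen phosphorylase of liver, which shortens it. The MET level was below the CON level by 1.39-fold for GYS2 and by 1.32-fold for PYGL. The test was edgeR's quasi-likelihood test with the Benjamini-Hochberg adjustment over 13212 genes and a false discovery rate (FDR) of at most 0.10, at which 4.41% of all genes tested were called, 2.32% lower and 2.09% higher in MET. Over the 10 samples none of the 9 genes passed, as none of the 13242 genes then tested did, although 2165 of these had an unadjusted p of at most 0.05 and DESeq2 called 639 of them. DESeq2 over the 10 samples called 3 of the 9 genes, PYGL (adjusted p = 0.0127), GYS2 (adjusted p = 0.0491) and GBE1 (adjusted p = 0.0676), all lower in MET, against 4.83% of all genes, 2.51% lower and 2.31% higher.

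As a group the 9 genes had a median log2 fold change of −0.30 over the 12 libraries, beside −0.0031 for all genes tested and −0.26 for the 12 hepatocyte markers. The values ran from −0.72 for GBE1 to 0.33 for PPP1R3C, 6 below and 3 above 0. An unadjusted p of at most 0.05 was reached over the 10 samples by GYS2, GBE1, PGM1 and PYGL, each with a lower mean in MET, where 16.3% of all genes reached it, 8.52% with a lower and 7.83% with a higher level in MET. The count of genes without overlap depended on the scale. In CPM, counts scaled to the same total in each library after TMM normalization, samples of the diets did not overlap for 1 of the 9 genes, PYGL, while 3.71% of all genes tested did not overlap, 1.77% with MET lower and 1.94% with MET higher. In TPM they did not overlap for 3 of the 9, PYGL, GYS2 and PGM1, each lower in MET, while 2.29% of all genes did not, 1.39% with MET lower and 0.901% with MET higher.

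**Figure D1:**
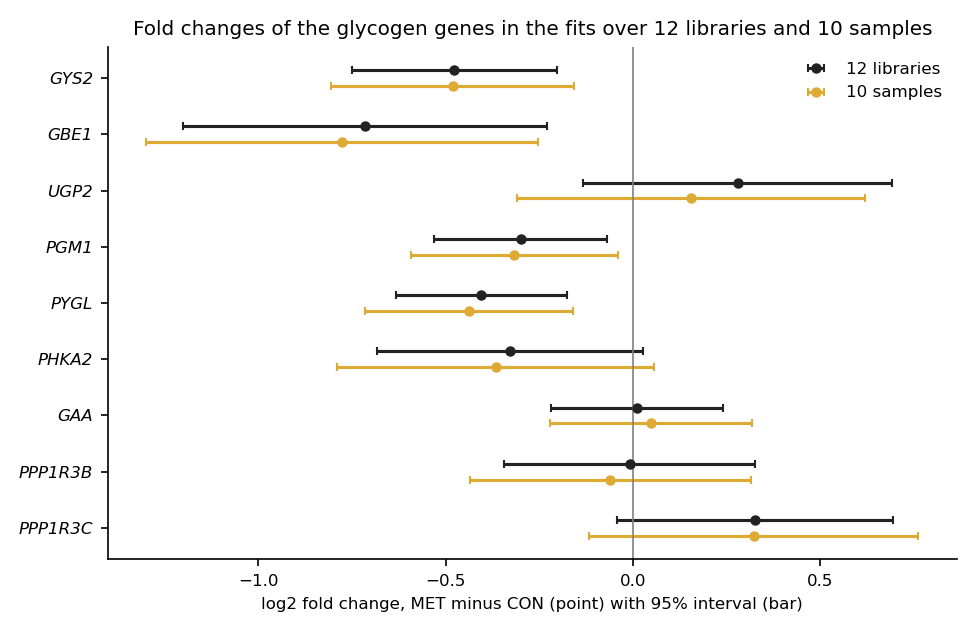
Log2 fold change of the 9 glycogen genes, MET minus CON, on the x axis, with points for the fit over 12 libraries and over 10 samples and lines for the 95% interval. The intervals over 10 samples of GYS2, GBE1, PGM1 and PYGL lie below 0, and those of the other genes include it.

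The markers of hepatocytes moved with these values. Their summed level was 162099 to 184210 TPM in CON and 131229 to 161281 TPM in MET, without overlap, although only APOB, the protein core of the lipoproteins that liver secretes, passed the test among the 12 (adjusted p = 0.0859 over 12 libraries, and 0.189 over 10 samples) and 5 of the 12 had a fold change above 0. The mean log2 CPM over the 12 markers was 12.56 ± 0.11 in CON and 12.34 ± 0.14 in MET (SD, n = 5). Set against that mean within each sample, the MET minus CON difference was −0.26 for GYS2 and −0.21 for PYGL on the log2 scale, and the samples of the diets overlapped for all 9 genes. In bulk RNA fewer cells of a type and less RNA per cell cannot be told apart, and the part of the hepatocyte markers in the glycogen genes' differences was not tested.

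Macrophage markers summed to 1535 to 2310 TPM in CON and 1839 to 2712 TPM in MET, with 3 of 10 called higher in MET over the 12 libraries. No marker of any list was called by edgeR over the 10 samples. Markers of cholangiocytes, the cells of the bile ducts, summed to 61.3 to 117 TPM and 38.5 to 89.9 TPM, with 1 of 5 tested called lower. The other lists overlapped widely, with 330.2 to 505 and 249 to 404 TPM for stellate cells and fibroblasts, of which 1 of 10 was called lower, 191 to 285 and 169 to 299.9 TPM for endothelium, and 27.6 to 42.6 and 31.2 to 48.4 TPM for lymphocytes, in CON and MET. Erythroid markers summed to 5.36 to 25.6 and 4.40 to 22.3 TPM, skeletal muscle markers to 8.79 to 11.8 and 10.3 to 18.6 TPM, and the 4 neutrophil markers to 32.8 to 105 and 37.9 to 323 TPM, with no call. None of their parts in the results was tested.

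Per length, UGP2 had the highest level of the 9, with a mean of 485 TPM over the 10 samples and rank 275 of the genes tested. PYGL followed with 197 TPM, GYS2 with 132 TPM and PGM1 with 82.5 TPM. The targeting subunits PPP1R3B and PPP1R3C stood at 60.0 and 54.3 TPM, and GBE1, GAA and PHKA2 at 24.6, 15.7 and 9.51 TPM.

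UGP2 was above PYGL, PYGL above GYS2, GYS2 above PGM1 and GAA above PHKA2 in all 10 samples. Across samples the ranges stood apart only between UGP2 and PYGL and between GAA and PHKA2. The neighbours PPP1R3B and PPP1R3C were the least ordered, with PPP1R3B above PPP1R3C in 5 of 5 CON samples and in 2 of 5 MET samples.

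PGM1 makes the glucose 1-phosphate that enters synthesis and takes up what breakdown releases. The gene lies on the minus strand of chr3:82250291-82315999 (gene ID 534402, 12 exon blocks) of the assembly UMD 3.1.1, to which all positions here refer. Its level was 159, 176, 136, 151 and 144 CPM in the pair of CON replicates 1 and 4 and in CON replicates 2, 3, 5 and 6. It was 136, 120.3 and 121 CPM in the pair of MET replicates 1 and 3 and in MET replicates 2 and 4, and 98.1 and 139 CPM in MET replicates 5 and 6. Thus 3 MET samples were below every CON sample in CPM, and the other 2 lay at the lower edge of the CON range. In TPM all 5 MET samples, at 53.0 to 84.2, were below the CON samples, at 90.6 to 94.5. The means were 153 ± 15.3 and 123 ± 16.4 CPM (SD, n = 5), and the log2 fold change of −0.30 (SE 0.11) did not pass the test (edgeR adjusted p = 0.148 over 12 libraries and 0.258 over 10 samples).

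UGP2 joins glucose 1-phosphate to UTP to give UDP-glucose, which also feeds glucuronidation and galactose metabolism. It lies on the plus strand of chr11:62242593-62299944 (gene ID 281565, 14 exon blocks). CON samples, in the order above, had 625, 622, 580.2, 797 and 1065 CPM, and MET samples 1126, 766, 912, 670.1 and 634 CPM. The diets overlapped over most of the range, with CON replicate 6 and the pair of MET replicates 1 and 3 highest in their groups. The means were 738 ± 201 and 822 ± 201 CPM, and neither fit called the gene (log2 fold change 0.28, adjusted p = 0.435 over 12 libraries, and 0.16, with a 95% interval of −0.31 to 0.62, over 10 samples). The fit over 10 samples counts both library pairs once, the high MET pair and the CON pair of replicates 1 and 4. The value was 0.19 without MET replicate 3, 0.24 without CON replicate 4 and 0.16 without both. Without CON replicate 6 the value over the remaining libraries was 0.43.

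GYS2, the synthase that lengthens the chains, lies on the plus strand of chr5:89020672-89077024 (gene ID 537451, 17 exon blocks). The CON samples had 364, 325, 257, 377 and 316 CPM. The MET samples had 264, 256, 253, 180 and 222 CPM. In 4 of 5 MET samples the level was below every CON sample, and the lowest CON sample, replicate 3, lay just under the highest MET sample. In TPM the highest MET sample, at 132.8, lay just under the lowest CON sample, at 133.5. The means were 328 ± 47.1 CPM in CON and 235 ± 34.8 CPM in MET, with coefficients of variation of 14.4% and 14.8%.

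The log2 fold change of GYS2 was −0.48 (SE 0.13) over the 12 libraries, with an edgeR adjusted p of 0.0813. Over the 10 samples it was −0.48 with a 95% interval of −0.80 to −0.16 and an adjusted p of 0.185, so the size held and the call did not. With 1 library left out, GYS2 was called in 2 of 12 fits, those without CON replicates 2 and 3, and the values of all 12 fits lay between −0.54 and −0.41.

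GBE1, the branching enzyme, lies on the minus strand of chr1:28659456-28972472 (gene ID 615745, 17 exon blocks). Its CON samples had 21.5, 39.8, 47.7, 30.4 and 32.5 CPM and its MET samples 17.5, 31.5, 14.2, 19.7 and 17.2 CPM. Again 4 MET samples were below every CON sample, and MET replicate 2 lay among the CON samples. The means were 34.4 ± 9.89 and 20.0 ± 6.73 CPM, and the spread within a diet, with coefficients of variation of 28.8% and 33.6%, was in MET the widest of the 9 genes. The log2 fold change, −0.72 (SE 0.23) over 12 libraries and −0.78 (95% interval −1.30 to −0.25) over 10 samples, was the lowest of the 9 and did not pass (edgeR adjusted p = 0.113 and 0.185). With 1 library left out it passed in 1 of 12 fits, that without MET replicate 2 (−0.90, adjusted p = 0.0675), and the values of all 12 fits lay between −0.90 and −0.57.

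**Figure D2:**
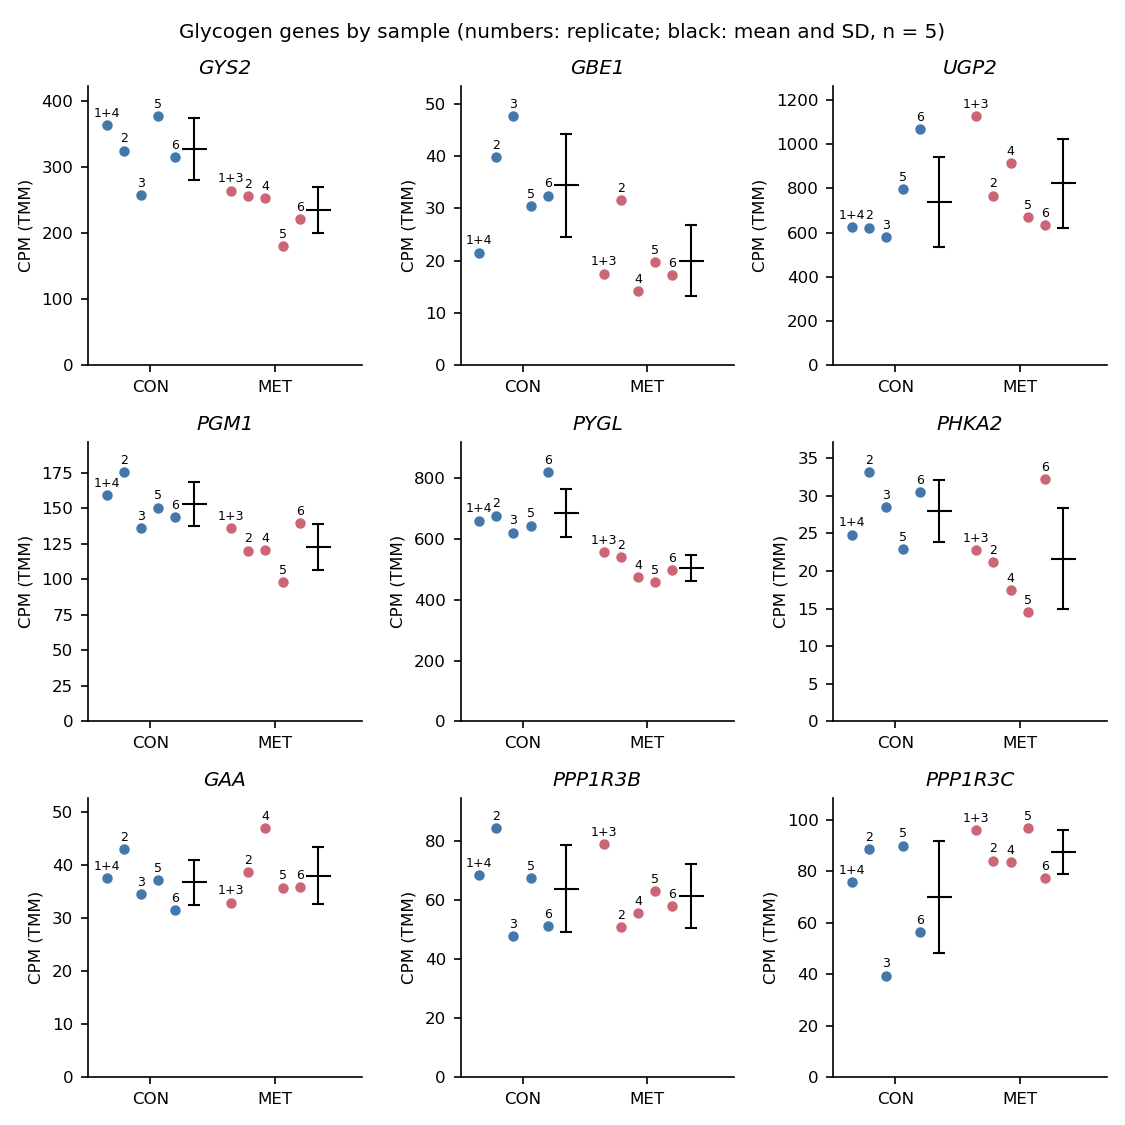
Level in CPM, after TMM scaling, of each of the 9 glycogen genes by diet, with 1 point per sample labelled by replicate number (1+4 and 1+3 are the library pairs counted once) and the mean and SD of 5 samples in black. PYGL is the gene whose CON and MET samples do not overlap in CPM, and 4 of 5 MET samples of GYS2, GBE1 and PHKA2 lie below all CON samples.

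PYGL releases glucose 1-phosphate from the chain ends, and lies on the minus strand of chr10:43786281-43841188 (gene ID 505472, 22 exon blocks). The CON samples had 659.8, 675, 620.0, 642 and 819 CPM. The MET samples had 556, 540, 475, 457 and 496 CPM, all below the lowest CON sample. The means were 683 ± 78.8 and 505 ± 42.4 CPM, and CON replicate 6 stood apart above the other CON samples. The log2 fold change was −0.40 (SE 0.11, edgeR adjusted p = 0.0781) over 12 libraries and −0.44 (95% interval −0.72 to −0.16, adjusted p = 0.180) over 10 samples.

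With 1 library left out, PYGL was called in 3 of 12 fits, those without CON replicates 2, 3 and 5, and the values of all 12 fits lay between −0.43 and −0.34. Its exons span 5424 bases, the longest of the 9 genes. A further fit of all genes removed from each library a smooth trend on gene length. In that fit the log2 fold change of PYGL was −0.31 over 12 libraries (edgeR adjusted p = 0.170) and −0.34 over 10 samples (adjusted p = 0.290). GYS2 was not called in that fit either (edgeR adjusted p = 0.117 over 12 libraries and 0.255 over 10 samples).

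PHKA2 is the liver form of the alpha subunit that regulates phosphorylase kinase, and lies on the plus strand of chrX:131723560-131814091 (gene ID 515732, 34 exon blocks). CON samples had 22.9 to 33.2 CPM. MET replicates 2, 4 and 5 and the pair of replicates 1 and 3 had 14.5 to 22.8 CPM, below every CON sample, while MET replicate 6 had 32.3 CPM. The means were 28.0 ± 4.16 and 21.7 ± 6.74 CPM, and the difference did not pass (log2 fold change −0.33, SE 0.17, adjusted p = 0.280, and over 10 samples −0.37 with a 95% interval of −0.79 to 0.06).

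GAA, the acid glucosidase of lysosomes, lies on the minus strand of chr19:53099921-53116149 (gene ID 280798, 21 exon blocks). It had 31.5 to 43.0 CPM in CON and 32.9 to 47.0 CPM in MET, with means of 36.7 ± 4.23 and 38.0 ± 5.41 CPM. Its log2 fold change over 10 samples was 0.05 with a 95% interval of −0.22 to 0.32, so no difference was resolved for the lysosomal enzyme. Over 12 libraries TMM gave 0.011 and upper-quartile factors −0.0095. The median of all genes also moved with that scaling, from −0.0031 to −0.022.

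PPP1R3B, the targeting subunit of protein phosphatase 1 that prevails in liver, lies on the minus strand of chr27:24314782-24323720 (gene ID 514428, 3 exon blocks). It had 47.9 to 84.6 CPM in CON and 51.1 to 79.2 CPM in MET, with means of 64.0 ± 14.8 and 61.4 ± 10.9 CPM. The log2 fold change over 10 samples was −0.06 (95% interval −0.43 to 0.31). Over 12 libraries its value went from −0.0088 with TMM to 0.038 with library size alone. The median of all genes also moved with that scaling, from −0.0031 to 0.031.

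PPP1R3C, a further targeting subunit found in liver and muscle, lies on the minus strand of chr26:13270022-13274922 (gene ID 539466, 2 exon blocks). CON samples had 75.7, 88.6, 39.5, 89.9 and 56.2 CPM and MET samples 95.8, 84.2, 83.5, 96.8 and 77.4 CPM. In MET 2 samples were above every CON sample, and 3 CON samples, replicates 3 and 6 and the pair of replicates 1 and 4, were below every MET sample. The CON samples varied more, with means of 70.0 ± 21.8 and 87.5 ± 8.43 CPM. The log2 fold change of 0.33 (SE 0.17), the highest of the 9, did not pass (adjusted p = 0.302, and over 10 samples 0.32 with a 95% interval of −0.12 to 0.76). Without CON replicate 3 it was 0.20.

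Ratios within a sample show how the genes stood to each other, on the TPM scale and as a description with no test. GYS2 over PYGL was 0.684 ± 0.122 in CON and 0.657 ± 0.0715 in MET (SD, n = 5), a difference smaller than the spread within either diet. UGP2 over GYS2 was 3.02 ± 0.860 in CON and 4.63 ± 0.757 in MET, with overlap. PPP1R3C over PPP1R3B was 0.595 to 0.961 in CON and 0.874 to 1.19 in MET, also with overlap. GYS2 over GYS1, the synthase of muscle and most other tissues, was 20.6 to 28.5 in CON and 9.30 to 16.0 in MET without overlap, and GYS2 had been called lower before this ratio was formed.

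**Figure D3:**
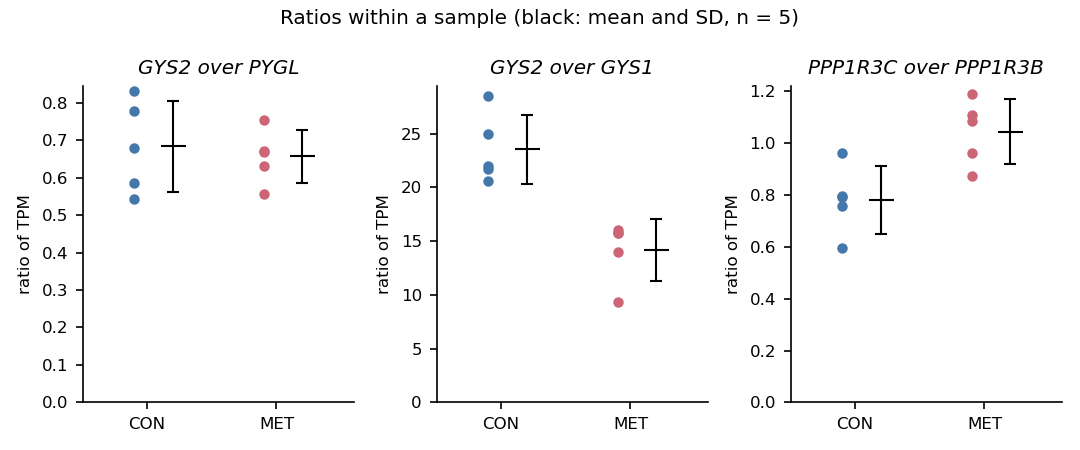
Ratios of TPM within a sample, GYS2 over PYGL, GYS2 over GYS1 and PPP1R3C over PPP1R3B, with 1 point per sample by diet and the mean and SD of 5 samples in black. The diets overlap in the ratios on the left and right, and the MET samples of GYS2 over GYS1, 9.30 to 16.0, lie below the CON samples, 20.6 to 28.5.

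The liver forms prevailed over their isoforms. Mean levels in CON and MET were 6.69 and 7.67 TPM for GYS1, and 3.93 and 3.68 TPM for PYGB, the phosphorylase of brain. PYGM, the phosphorylase of muscle, stood at 0.135 and 0.132 TPM and was too low to be tested. PYGL was 62.1 ± 15.3 times the level of PYGB in CON and 47.0 ± 16.0 times in MET. PGM2, which acts mainly on other sugar phosphates, stood at 2.91 and 1.80 TPM. None of the tested isoforms GYS1, PGM2 and PYGB passed the test in either fit (edgeR adjusted p of at least 0.312).

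Phosphorylase kinase is built of alpha, beta, gamma and delta subunits, the last being calmodulin. PHKA1, the muscle alpha subunit, had 6.52 ± 0.957 and 6.24 ± 1.36 CPM in CON and MET, and per length PHKA2 exceeded it by 4.14-fold in CON and 3.51-fold in MET. PHKB, the beta subunit, stood at 9.01 and 6.39 TPM, and its log2 fold change of −0.43 was outside the threshold with edgeR (adjusted p = 0.101, and 0.185 over 10 samples) and within it with DESeq2 over the 10 samples (adjusted p = 0.0981). Of the catalytic gamma subunits PHKG2, the liver form, stood at 28.6 and 34.5 TPM and PHKG1, the muscle form, at 1.23 and 0.847 TPM, and neither passed. Of the calmodulin genes CALM3 passed over 12 libraries and was higher in MET, with 42.8 ± 3.78 and 53.5 ± 4.69 CPM (log2 fold change 0.35, adjusted p = 0.0800, and 0.195 over 10 samples).

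Among the other targeting subunits, PPP1R3E stood at 3.60 and 3.54 TPM, PPP1R3D at 0.938 and 1.13 TPM and PPP1R3G at 0.130 and 0.087 TPM, and PPP1R3A, the subunit of skeletal muscle, had no read in any library, where 3 reads equal 0.289 to 0.362 CPM. Both of those that could be tested, PPP1R3D and PPP1R3E, failed to pass. Of the 3 catalytic subunits of protein phosphatase 1, PPP1CC and PPP1CB did not overlap between diets in CPM and PPP1CA did. PPP1CC was 34.7 ± 3.25 CPM in CON and 27.3 ± 1.23 CPM in MET and was called lower over 12 libraries (log2 fold change −0.31, adjusted p = 0.0933, and 0.178 over 10 samples). PPP1CB was 82.7 ± 8.11 and 64.5 ± 9.55 CPM, without overlap, and did not pass (adjusted p = 0.135 and 0.223). PPP1CA, per length the most abundant of the 3, was 59.7 ± 9.98 and 65.3 ± 10.8 CPM and did not pass (log2 fold change 0.17, adjusted p = 0.465, and 0.693 over 10 samples).

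Beyond these, 53 genes around the pathway were listed by what their proteins do, of which 46 passed the filter. Over the 12 libraries 4 of the 46 were called, 2 higher and 2 lower, where 4.41% of all genes tested were called, 2.09% higher and 2.32% lower. Their median log2 fold change was −0.13, with 31 of 46 below 0. Beside CALM3 and PPP1CC these were G6PC3 and STBD1. G6PC3, the widely expressed glucose 6-phosphatase, was higher in MET with 15.7 ± 2.06 and 20.4 ± 2.62 CPM (log2 fold change 0.38, adjusted p = 0.0918, and 0.201 over 10 samples). The other glucose 6-phosphatase listed, G6PC1, stood at 280 and 212 TPM in CON and MET, where G6PC3 stood at 20.7 and 25.9 TPM. G6PC1 had a fold change below 0 and did not pass (log2 fold change −0.26, edgeR adjusted p = 0.673, and 0.610 over 10 samples). STBD1, which binds glycogen and takes it towards lysosomes, was lower in MET with 191 ± 34.2 and 139 ± 25.2 CPM (log2 fold change −0.52, adjusted p = 0.0855, and 0.214 over 10 samples). Over the 10 samples edgeR called none of the 46, 15 had an unadjusted p of at most 0.05 (4 higher and 11 lower) and DESeq2 called 7, PPP1CC, PHKB, SLC2A2, PRKAR2A, PRKAR2B and ADRA1A lower and CALM3 higher in MET. Over all genes the shares were 16.3% for the unadjusted p (7.83% higher and 8.52% lower) and 4.83% for DESeq2.

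In CPM the diets did not overlap for 3 of the 46 genes, PPP1CB, PPP1CC and PRKAR2A, all lower in MET, beside 3.71% of all genes tested and 1.77% with MET lower. With the 12 libraries kept apart, PPP1CC and PRKAR2A overlapped and PPP1CB did not, and in TPM the diets overlapped for all 46. PRKAR2A, a regulatory subunit of the protein kinase A through which glucagon acts on this pathway, stood at 9.47 ± 3.36 and 4.87 ± 1.32 CPM (log2 fold change −0.80, adjusted p = 0.101, and 0.175 over 10 samples). Of the 13 kinases and hormone receptors listed, 11 had a fold change below 0 and none was called by edgeR in either fit, while DESeq2 over the 10 samples called 3, PRKAR2A (adjusted p = 0.0402), PRKAR2B (adjusted p = 0.0677) and ADRA1A (adjusted p = 0.0986), all lower in MET. SLC2A2, the glucose transporter of the hepatocyte membrane, was picked out after its values were seen, since its log2 fold change of −0.83 was the lowest of the list. It stood at 381 ± 128 CPM in CON and 209 ± 82.0 CPM in MET and did not pass with edgeR (adjusted p = 0.123, and 0.195 over 10 samples) but did with DESeq2 over the 10 samples (adjusted p = 0.0652).

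**Figure D4:**
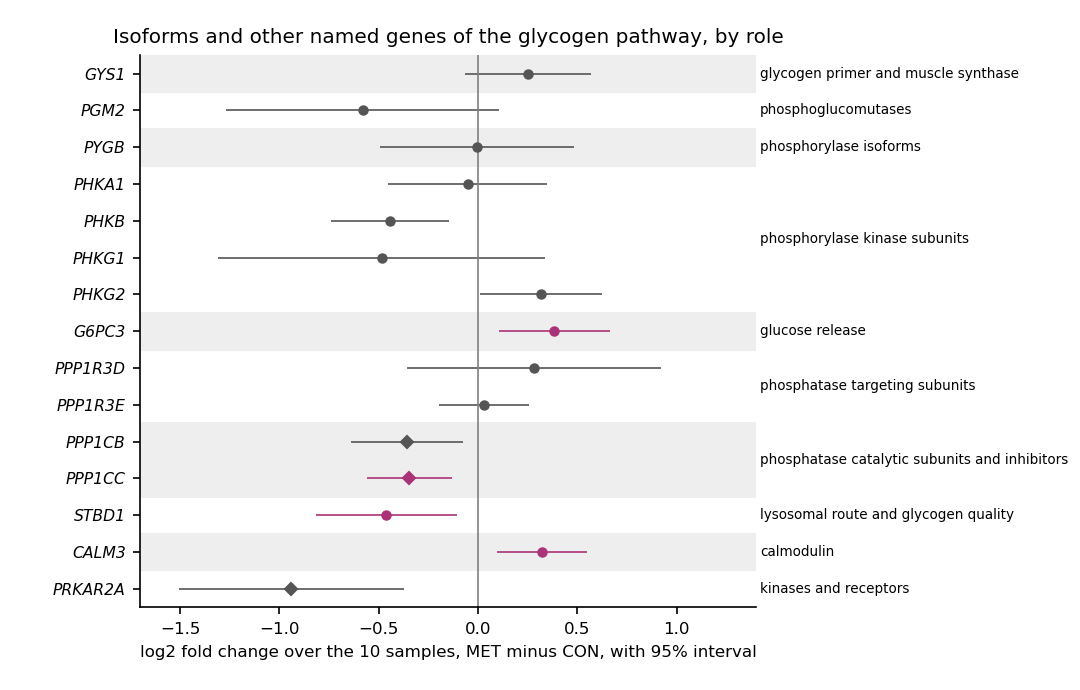
Log2 fold change, MET minus CON, of the tested isoforms and other pathway genes named by the rule given below, over the 10 samples, with 95% intervals, grouped by role. Colour marks the 4 genes called over the 12 libraries, G6PC3, PPP1CC, STBD1 and CALM3, and diamonds the 3 genes whose diets do not overlap in CPM, PPP1CB, PPP1CC and PRKAR2A.

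The genes whose levels followed each member most closely over the 10 samples are given as a description, by Pearson r of log2 CPM. The samples share a sequencing lane but come from both diets, so a difference between diets in both genes enters r. The pattern of GYS2 was most like those of CYP4A11 (0.945), ALAS1 (0.945) and CYP2C23 (0.933). CYP4A11 and CYP2C23 encode cytochrome P450 enzymes and ALAS1 the rate-limiting enzyme of heme synthesis. That of PYGL was most like HSPA1A (0.941), a heat shock protein, BAZ1B (0.925) and the bicarbonate transporter SLC4A4 (0.925). PHKA2 was most like ZNF581 (0.957), PRKAA2 (0.947), a catalytic subunit of AMP-activated kinase, and DKK3 (0.931). GBE1 was most like KLHL2 (0.966), ELF5 (0.959) and KBTBD2 (0.948), and PGM1 most like MYOM1 (0.915), CYB5A (0.911) and SLC16A11 (0.909).

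For UGP2 the closest were DDX52 (0.897), HNRNPU (0.893) and PSME1 (0.887), and for GAA GPR143 (0.954), SDF2 (0.887) and CDKN2AIPNL (0.868). PPP1R3B was most like TSPAN9 (0.900), CIPC (0.898) and SEC14L2 (0.895), and PPP1R3C most like S1PR5 (0.965), the glutamine transporter SLC1A5 (0.947) and HDHD3 (0.932). No member of the 9 was among the 3 closest genes of another, where only 3 places were open among all named genes tested. Between members, r ran from −0.57 for GBE1 and PPP1R3C to 0.83 for GYS2 and PGM1. It was 0.81 for PGM1 and PHKA2 and 0.78 for GYS2 and PYGL.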

How the data were processed

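Per the labels and file headers, the authors sequenced stranded mRNA libraries, aligned the reads with STAR 2.5.3a to the bovine assembly UMD 3.1.1 and deposited raw counts of reads per gene from featureCounts 1.5.2, by gene ID and without normalization. Gene names were taken from a RefSeq table of the assembly ARS-UCD2.0, which named 25105 of 30336 IDs. Exons of the 9 genes overlapped those of no other gene.

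Counts were scaled by TMM in edgeR 4.0.16 (R 4.3.3) and filtered by edgeR's default rule (count of 10, total of 15), which kept 13212 genes. Diets were compared with the quasi-likelihood test, with diet alone in the model, Benjamini-Hochberg adjustment and an FDR of at most 0.10. The scripts were tested on simulated data. A second fit summed the reads of each near-identical library pair (10 samples, 13242 genes). A pair entered the means and SD once, by its average CPM, so that n is 5 in each diet. TPM used the exon lengths in the files. SE is that of the coefficient. The floor of 3 reads covers counting error only.

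The rule named the 9 members, their isoforms and the other subunits of phosphorylase kinase, and those of 53 listed pathway genes that were called or whose diets did not overlap. SLC2A2, PPP1CA, PRKAR2B, ADRA1A and G6PC1 fall outside it and were added after their values were seen. The members and lists were chosen with earlier results of these data known. Alternatives changed the scaling (RLE, upper quartile, library size with and without the 10 most counted genes), the filter (none, or CPM above 0.5 in 2 libraries), the test (likelihood ratio, robust estimation, limma's voom in version 3.58.1, or DESeq2 1.42.0), the replicate block, the library pairs, the gene length trend (span 0.5) and single libraries. The fits over 10 samples with the length trend removed, the levels relative to the hepatocyte markers and the overlap in TPM were chosen after seeing the data.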

Additional observations from a re-analysis of the deposited data

Results flagged for a closer look

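PYGL in CON replicate 6 stood at 819 CPM, where the other 4 CON samples had 620.0 to 675 CPM, a gap to the next sample that exceeds Dixon's critical value of 0.71 times the range of the 5 samples. PPP1CB in MET replicate 6 stood at 47.5 CPM, below the other 4 MET samples, which had 67.3 to 70.0 CPM, by the same measure. These were 2 of 52 groups examined, and chance flags about 1 in 20.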

How the results depend on the processing

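The count of glycogen genes called, 2 over the 12 libraries, was 0 with library size only, with library size without the 10 most counted genes, without a filter, with 10 samples, with either set of 10 libraries and with the length trend removed (12 libraries or 10 samples), and 4 with DESeq2. With 1 library left out it was 0 to 2. For the other pathway genes, 4 at first, the count was 0 with library size only, no filter, 10 samples, both sets of 10 libraries and the length trend removed (12 libraries or 10 samples), 2 with the CPM filter, 7 with the likelihood-ratio test, 12 with DESeq2 and 7 with DESeq2 over 10 samples, and 0 to 4 with 1 library left out. Over all genes, 583 at first, it was 107 with library size only, 374 without the 10 most counted genes, 238 without a filter, 914 with the likelihood-ratio test, 1314 with DESeq2, 260 with the length trend removed, 0 with 10 samples, both sets of 10 libraries and 10 samples with the length trend removed, and 26 to 565 with 1 library left out, the lowest without CON replicate 1. The causes were not tested.

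The sample numbers in the labels are shared by both diets but did not pair the samples, as deviations from the diet means of same-numbered libraries correlated at −0.196 to 0.160 and 1 of 12 libraries correlated best with its own number. With the replicate block the count was 0 glycogen genes, 0 other pathway genes and 6 genes in all.

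Of 29 alternatives per gene, GYS2 lost its call in 19 and PYGL in 18, always lower in MET. GBE1 gained a call in 4 and PGM1 in 1, and UGP2, PHKA2 and PPP1R3C kept direction and no call in all 29. GAA turned to −0.0095 with upper-quartile factors and, with values of −0.066 to 0.060 over the fits with 1 library left out, turned without CON replicate 3 (−0.0070), CON replicate 6 (−0.030), MET replicate 2 (−0.00045) or MET replicate 4 (−0.066). PPP1R3B turned to 0.038 with library size only, 0.010 without the 10 most counted genes, 0.00013 without a filter, 0.00064 with the CPM filter, and, with values of −0.094 to 0.082 over the fits with 1 library left out, turned without CON replicates 1 (0.021), 2 (0.082) and 5 (0.0037) or MET replicates 2 (0.050), 4 (0.030) and 6 (0.016). The count of glycogen genes without overlap of the diets was 1 in CPM with TMM, with library size only and over the 12 libraries, 0 relative to the hepatocyte markers and 3 in TPM.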
